A study of Mus musculus with 186 samples.

Results

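The adenylyl cyclases Adcy1 to Adcy9 are the membrane-bound enzymes that make the second messenger cyclic AMP. They were taken by symbol from the table of gene counts, in which 9 of 28338 genes are members, and all 9 passed the filter on low counts in every fit described here. Bulk RNA sequencing covered 186 libraries of mouse brain. Mice were wild type (WT), Akap11 +/- (HET) or Akap11 -/- (KO), aged 4 or 12 weeks, and 6 regions were dissected from frozen brain in a cryostat: the striatum (STR), hippocampus (HP), thalamus (TH), substantia nigra (SN), and the prefrontal (PFC) and somatosensory (SSC) cortex. Of the 36 groups, 30 held 5 libraries and 6 held 6. The sources used here name no further allele, agent, strain or sex, and do not say whether Akap11 was lost from all cells. A library is named here by its genotype and the sample number in its label. The labels do not state that each number is a separate animal, so p-values measure the spread between these samples.

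An adenylyl cyclase converts ATP into cyclic AMP when a receptor coupled to Gs, or in striatum to its relative Golf, is activated, and receptors coupled to Gi hold several of the enzymes back. The isoforms differ in what else they respond to: Adcy1, Adcy3 and Adcy8 are tied to calcium and calmodulin, Adcy2, Adcy4 and Adcy7 are stimulated by G protein beta-gamma subunits together with Gs, Adcy5 and Adcy6 are inhibited by Gi and by calcium, and Adcy9 responds weakly to forskolin. Cyclic AMP activates protein kinase A (PKA), which A-kinase anchoring proteins such as Akap11 tether within the cell. In striatal projection neurons dopamine and adenosine receptors act through Adcy5.

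Promoter sequences were looked up because several cyclic AMP responsive genes carry a CRE, the site TGACGTCA or its shorter form TGACG, in this window. RefSeq promoter windows on GRCm38.p6, running from 250 bases before to 50 bases after a transcript start, were found for 7 of the 9 members; Adcy6 and Adcy8 had no entry. The 3 below belong to the member that rose in KO striatum (Adcy1, chr11:7063183-7063482, plus strand), the member with the highest level in striatum (Adcy5, chr16:35154614-35154913, plus strand) and a member whose window holds a short CRE (Adcy9, chr16:4420449-4420748, minus strand). They are written 5′ to 3′ on the strand of the gene, and capitals mark TGACG.
Adcy1: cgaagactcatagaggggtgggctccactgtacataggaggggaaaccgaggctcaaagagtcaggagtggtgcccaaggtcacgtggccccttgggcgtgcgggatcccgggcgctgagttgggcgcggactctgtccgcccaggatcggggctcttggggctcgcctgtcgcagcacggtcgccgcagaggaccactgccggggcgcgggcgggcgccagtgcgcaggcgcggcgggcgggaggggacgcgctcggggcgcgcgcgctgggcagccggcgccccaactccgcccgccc
Adcy5: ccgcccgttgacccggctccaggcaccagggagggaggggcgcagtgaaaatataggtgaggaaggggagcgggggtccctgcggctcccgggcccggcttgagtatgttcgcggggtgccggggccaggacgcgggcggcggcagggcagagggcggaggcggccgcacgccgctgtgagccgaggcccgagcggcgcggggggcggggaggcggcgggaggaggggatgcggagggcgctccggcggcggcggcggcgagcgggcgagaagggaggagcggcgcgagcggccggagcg
Adcy9: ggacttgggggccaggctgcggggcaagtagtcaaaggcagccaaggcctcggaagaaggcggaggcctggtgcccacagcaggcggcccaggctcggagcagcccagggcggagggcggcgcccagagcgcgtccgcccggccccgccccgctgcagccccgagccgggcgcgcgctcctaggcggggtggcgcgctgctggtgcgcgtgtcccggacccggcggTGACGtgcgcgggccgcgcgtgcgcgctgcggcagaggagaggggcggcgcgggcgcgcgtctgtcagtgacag
All 3 windows are rich in G and C, at 74% for Adcy1, 79% for Adcy5 and 78.3% for Adcy9, against a median of 52.7% over 32851 windows of the same length. They hold 37, 44 and 42 CpG dinucleotides, against a median of 7. On either strand, TGACGTCA was in 0 of the members' windows and in 1.79% of all windows. TGACG or its complement CGTCA, which the longer site contains, was in the Adcy9 window above at position -24 from the start, in 1 of the 3 Adcy7 windows at position -28, and in 20.8% of all windows. A match is a description of the letters and not a measured site.

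The libraries held 20.8 to 73.3 M counts in total. Akap11 itself was at 5.08% to 7.98% of WT in KO and passed the test in all 12 sets of region and age, and was at 50.2% to 61.8% in HET, where HP (adjusted p = 0.27) and SN (adjusted p = 0.55) at 4 weeks did not pass in edgeR's quasi-likelihood test. Marker genes of the labelled region were checked in every library. By limits on marker scores set after the scores were seen, 21 libraries, of which 18 are from 4 weeks, had a high marker score for another region or a low one for their own. They are part of the levels and means given below. For short, all 21 are called libraries that carry another region's markers. Those of SN and TH were flagged only for a low score of their own region. Counts of tests that passed are also given without them, as are the single tests whose outcome then changed. In bulk tissue, fewer cells of a type and less RNA per cell cannot be told apart.

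Per length, Adcy5 made up most of the cyclase RNA in WT striatum and Adcy1 the largest share in cortex, hippocampus and thalamus. Levels are CPM, counts scaled to the size of the library, on a single TMM scaling of all libraries, and to compare genes they were divided by the length of the merged exons of each gene. The summed level of the 9 genes was 511 ± 97.1 CPM per kb (SD, n = 5) in striatum at 4 weeks and 372 ± 39.9 (n = 5) at 12 weeks. In SN it was 106 ± 19.5 (n = 6) and 92.0 ± 5.78 (n = 5), and the other regions lay between. Adcy5 held 84.3% of that sum in striatum at 4 weeks and 80.9% at 12 weeks. Adcy1 held 53.8% and 55.4% in hippocampus and 49.5% and 57.2% in thalamus. In SN the sum was more evenly split, with Adcy5 at 25.8% and 24.9% and Adcy2 at 23.8% and 27.4%. Adcy4 held under 1% in every region.

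**Figure D1:**
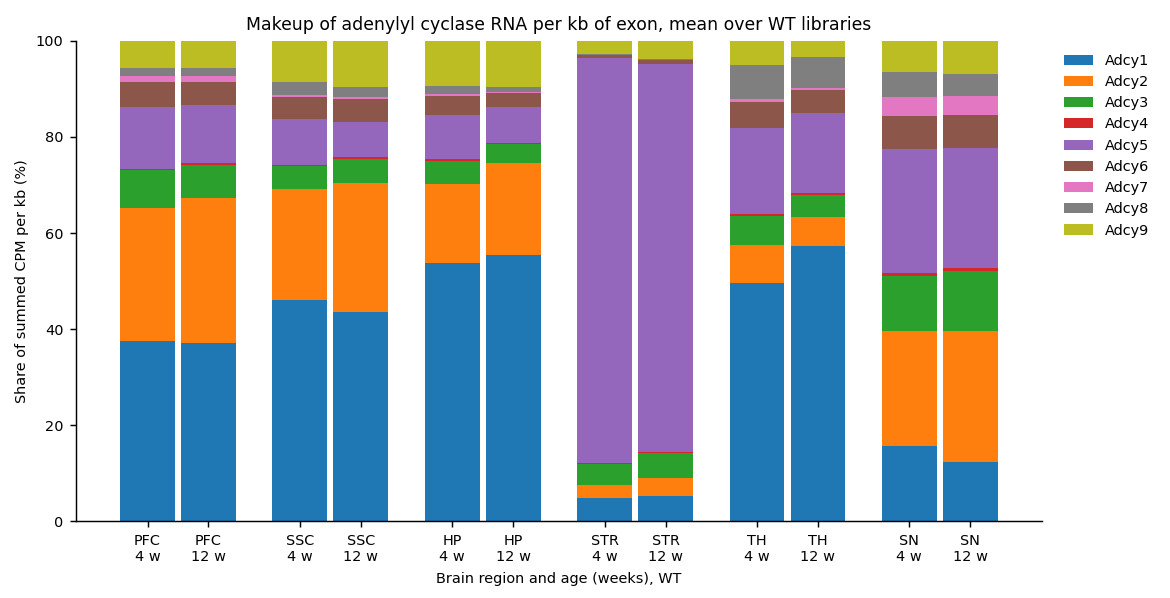
Share of each adenylyl cyclase in the summed level per length (CPM per kb of merged exon, mean over WT libraries, in percent) for each region and age. Adcy5 fills most of the striatal bars (84.3% and 80.9%), and Adcy1 is the largest share in HP (53.8% and 55.4%).

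Each member was then compared between regions in WT, each region against the mean of the other 5. Of 108 tests, 80 passed, 40 with the region higher and 40 with it lower (edgeR quasi-likelihood test, Benjamini-Hochberg over all genes, adjusted p under 0.05). At 4 weeks 36 of 54 passed, where 46.3% of all gene tests did, and at 12 weeks 44 of 54, where 61.6% did. Of the 54 pairs of gene and region, 35 passed at both ages, all 35 in the same direction. The like share over all genes was not counted. Over all pairs of regions 190 of 270 member tests passed, where 45.6% of all gene tests did at 4 weeks and 61.1% at 12 weeks. When regions were put in order of mean level, 37 of 90 pairs of neighbours differed. Neighbours are by choice the regions closest in level, and the like share over all genes was not counted. Without the libraries that carry another region's markers the counts were 86 of 108 and 48 of 90. The shares of all gene tests that passed in those fits are not given here, so the rise cannot be set against them. The tests of a region against the others that then newly passed, all at 4 weeks, were Adcy1 in PFC, Adcy2, Adcy7 and Adcy8 in HP, Adcy7 in TH and Adcy9 in STR.

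Among the calcium-responsive members, Adcy1 (chr11:7063489-7178506, plus strand on GRCm38, 20 exons) was high in hippocampus, cortex and thalamus and low in striatum and SN. At 4 weeks the mean level was 1416 ± 294 CPM (SD, n = 6) in HP, 1276 ± 248 in SSC, 1015 ± 209 in TH, 967 ± 129 in PFC, 317 ± 77.5 in STR and 232 ± 220 in SN. In that order only PFC and STR differed from each other as neighbours (adjusted p under 0.05). At 12 weeks the order was HP with 1477 ± 185 CPM, TH with 1301 ± 137, SSC with 1008 ± 85.3, PFC with 864 ± 144, STR with 252 ± 49.5 and SN with 142 ± 20.5. TH was then above SSC (adjusted p = 0.015), PFC above STR and STR above SN. The wide spread in SN at 4 weeks came with WT 42, where Adcy1 stood at 675 CPM against 89.4 to 194 in the other 5; its summed thalamic markers, 2390 CPM, were the highest of the WT SN libraries, and their part in the level was not tested.

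Adcy8 (chr15:64697084-64922296, minus strand), which calcium and calmodulin also stimulate, was highest in thalamus and lowest in striatum. Thalamic WT libraries held 60.7, 69.5, 94.8, 102, 103 and 121 CPM at 4 weeks and 81.8, 82.4, 89.9, 108 and 112 CPM at 12 weeks. Striatal WT libraries held 3.15 to 7.14 CPM and 3.84 to 4.61 CPM. No thalamic library came near a striatal one, and the highest group mean was 20.2 times the lowest at 4 weeks and 23.4 times at 12 weeks. Between these ends lay SSC (47.1 ± 4.82 and 33.7 ± 3.75 CPM), SN (46.1 ± 14.9 and 34.2 ± 3.88), PFC (30.3 ± 3.41 and 23.7 ± 2.38) and HP (28.8 ± 8.62 and 17.4 ± 3.47). SSC against SN missed the threshold at both ages (adjusted p = 0.798 and 0.969), and 7 of the 10 neighbouring pairs of Adcy8 passed the test.

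Adcy3 (chr12:4133103-4213525, plus strand), known for its part in olfactory signalling and in primary cilia, had its highest level in striatum. The mean there was 139 ± 23.5 CPM (n = 5) at 4 weeks and 123 ± 20.6 (n = 5) at 12 weeks. PFC followed with 101 ± 9.33 and 78.7 ± 3.81 CPM, and STR differed from PFC at both ages. The remaining regions held 49.9 to 74.3 CPM on average. Exons of Adcy3 overlap Cenpo on the other strand, as those of Adcy2 overlap Gm35161 and those of Adcy6 overlap Gm29331. The library kit was a stranded one, but the sources used here do not say whether the counting used strand. Whether reads of these pairs were kept apart in the counts is therefore not known.

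Of the beta-gamma responsive members, Adcy2 (chr13:68620043-68999541, minus strand) fell in steps from cortex to thalamus. Its mean in PFC was 241 ± 37 CPM (n = 5) at 4 weeks and 235.5 ± 8.0 (n = 5) at 12 weeks, and in SSC 211 ± 24.1 and 208 ± 6.77. HP held 144 ± 24.2 and 170.3 ± 8.84 CPM, SN 102 ± 19.6 and 106 ± 5.67, STR 56.6 ± 12.8 and 56.4 ± 4.45, and TH 55.1 ± 27.4 and 47.1 ± 8.36. PFC against SSC missed the threshold at both ages, and every later step passed at both ages except STR against TH at 4 weeks (adjusted p = 0.846).

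Adcy7 (chr8:88272403-88329962, plus strand), an isoform also prominent in immune cells, was low but clearly regional. SN held 18.3 to 36.2 CPM at 4 weeks and 22.9 to 29.3 at 12 weeks in WT, and PFC held 13.4 to 18.9 and 14.99 to 18.4. Means elsewhere were 3.09 to 7.05 CPM. SN was above PFC at 12 weeks (adjusted p = 0.0068) and missed the threshold at 4 weeks (adjusted p = 0.078), and PFC was above TH at both ages. Adcy4 (chr14:55769057-55784095, minus strand), the isoform nearest to Adcy2 and Adcy7 in regulation, was at the bottom of the range with group means of 2.29 to 3.93 CPM, and 0 of its 10 neighbouring pairs differed. Against the mean of the other regions at 12 weeks, Adcy4 was higher in TH (0.47, adjusted p = 0.0016). It was lower in STR (-0.40, adjusted p = 0.010) and HP (-0.38, adjusted p = 0.018). At 4 weeks none of these tests passed for Adcy4.

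Of the Gi- and calcium-inhibited members, Adcy5 (chr16:35154877-35305738, plus strand) set striatum apart from all other regions. Its striatal WT libraries held 2395, 2828, 2884, 3312 and 4088 CPM at 4 weeks, and 1768, 2137, 2255, 2303 and 2333 CPM at 12 weeks. All other WT libraries held 90.6 to 234 CPM, so the ranges were far apart. The step from STR to the next region, TH (206 ± 17.1 and 216 ± 9.93 CPM), was 3.93 on the log2 scale at 4 weeks and 3.34 at 12 weeks. Below it SN held 195 ± 20.7 and 165 ± 13.97 CPM, PFC 188 ± 15.7 and 161 ± 14.2, SSC 148 ± 17.4 and 97.7 ± 5.18, and HP 133 ± 20.5 and 114 ± 25.6. At 4 weeks no neighbours among these 5 passed the test, and at 12 weeks TH was above SN and PFC above HP.

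Adcy6 (chr15:98589973-98610076, minus strand), the closest relative of Adcy5, was lowest in striatum, where Adcy5 was highest. Its level there was 20.4 ± 4.6 CPM (n = 5) at 4 weeks and 15.7 ± 1.71 (n = 5) at 12 weeks. SN stood next with 48.9 ± 8.73 and 42.1 ± 2.19 CPM, and the step between the 2 regions passed at both ages. PFC held 72.7 ± 5.87 and 58.5 ± 1.11 CPM and SSC 67.9 ± 3.44 and 58.5 ± 2.68, with TH (60.2 ± 5.33 and 57.3 ± 9.54) and HP (54.4 ± 5.81 and 42.9 ± 2.45) between. Over the 12 means of WT groups, on the log2(CPM + 1) scale, Adcy5 and Adcy6 had a Pearson r of -0.89, the lowest of the 36 pairs of members, with the striatal means included. The highest were 0.85 for Adcy6 with Adcy8 and 0.83 for Adcy3 with Adcy5. There are only 12 points, and the labels do not say whether regions share animals, so these are descriptions with no test.

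Adcy9 (chr16:4287529-4420498, minus strand) was highest in hippocampus and SSC. HP held 102 ± 16.7 CPM (n = 6) at 4 weeks and 107 ± 12.5 (n = 5) at 12 weeks, and SSC 98.7 ± 9.91 and 91.8 ± 5.75. STR followed with 71.7 ± 4.81 and 73.0 ± 7.40 CPM, PFC with 59.9 ± 6.64 and 55.03 ± 7.27, TH with 42.9 ± 12.8 and 31.3 ± 2.47 and SN with 36.2 ± 14.9 and 33.5 ± 4.05. At 4 weeks no neighbours passed the test with all libraries, and at 12 weeks SSC was above STR, STR above PFC and PFC above SN.

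Without the libraries that carry another region's markers, 11 neighbouring pairs newly passed, all 11 at 4 weeks, and 0 were lost. For the calcium-responsive members these were SSC above TH (adjusted p = 0.048) and STR above SN (adjusted p = 1.3e-05) for Adcy1, and PFC above HP (adjusted p = 0.042) for Adcy8. Adcy2 was then higher in STR than in TH (adjusted p = 0.023), Adcy7 higher in SN than in PFC (adjusted p = 4.5e-04) and Adcy6 higher in TH than in HP (adjusted p = 0.015). Adcy5 was higher in PFC than in SSC (adjusted p = 0.032) and in SSC than in HP (adjusted p = 0.034). Adcy9 separated at 3 steps, SSC above STR (adjusted p = 6.1e-05), STR above PFC (adjusted p = 0.0048) and PFC above TH (adjusted p = 1.8e-07).

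**Figure D2:**
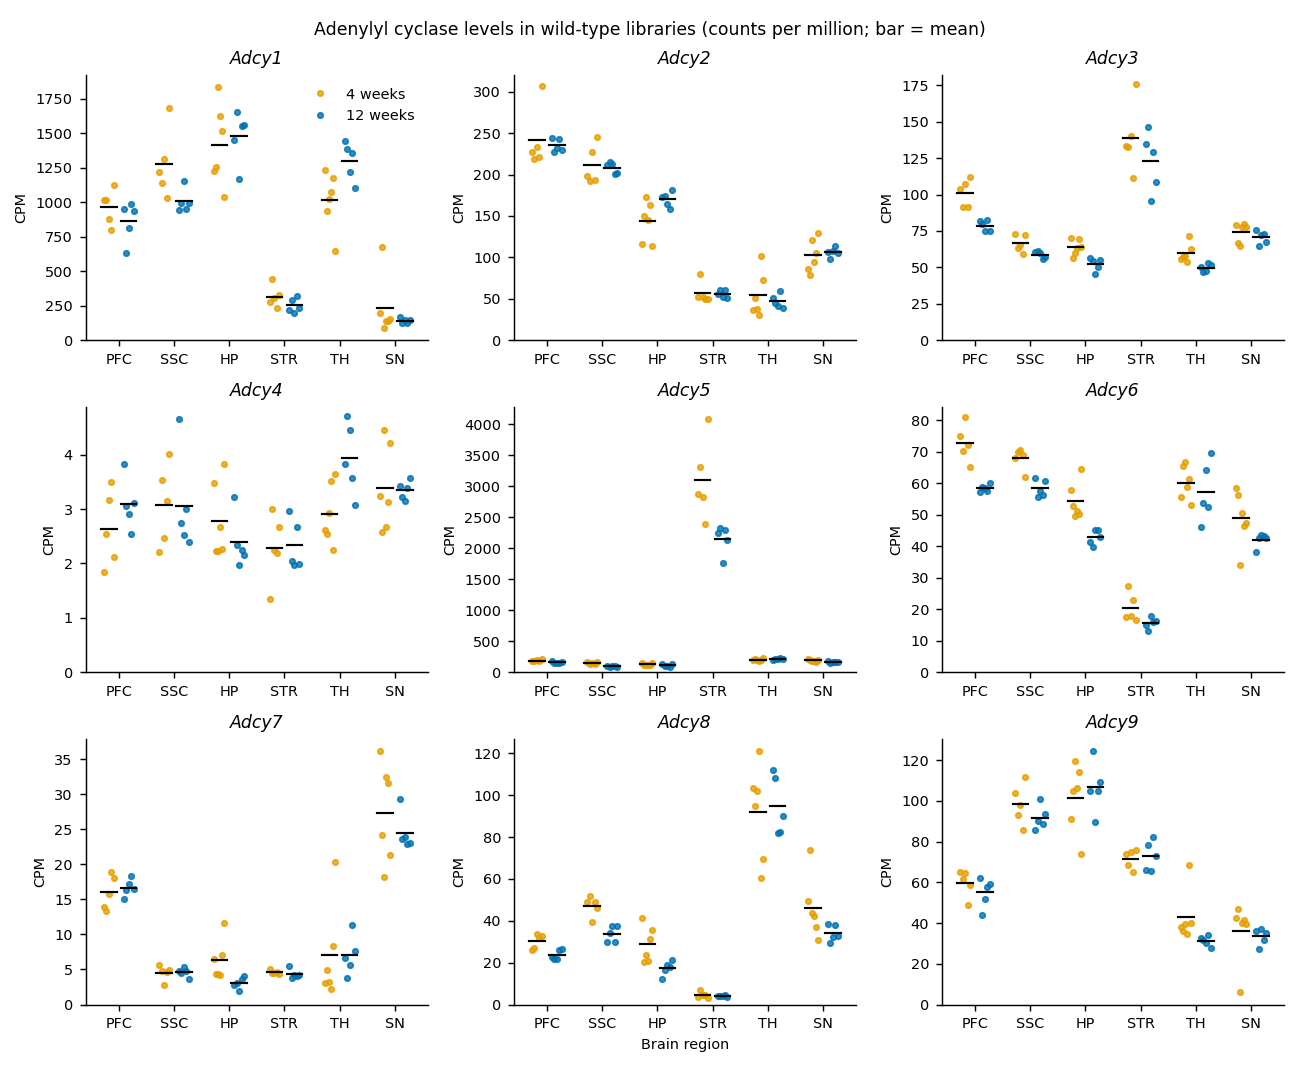
CPM of each adenylyl cyclase in every WT library by region, 4 and 12 weeks. Each point is a library; the striatal points of Adcy5 (1768 to 4088 CPM) lie above all others of that gene, and the striatal points of Adcy8 (3.15 to 7.14 CPM) lie below all others of that gene.

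The genes with the most similar regional pattern were named by Pearson r over the same 12 WT group means, among 14089 genes with a mean of at least 1 CPM. For Adcy1 they were Lztr1 (r = 0.957), Nell2 (0.955) and Rad51ap1 (0.955), and for Adcy8 Kcnc2 (0.986), Abca7 (0.984) and Arhgap44 (0.980). For Adcy3 they were Cntn5 (0.950), Rxrg (0.942) and Dkk2 (0.937). None of these 9 genes is itself a member. For Adcy2 they were Slc35f4 (0.983), Xylb (0.973) and Slc30a3 (0.973), for Adcy4 Wfdc1 (0.964), Tek (0.920) and Sparcl1 (0.915), and for Adcy7 Gpx3 (0.953), Fhl1 (0.952) and Susd2 (0.949). For Adcy5 they were Rarb (0.986), Tbc1d8 (0.982) and Gdnf (0.980), for Adcy6 Vps8 (0.990), Syp (0.985) and Tmem151b (0.983), and for Adcy9 Rnf216 (0.963), Arsb (0.962) and Msl2 (0.952). The measure rests on 12 points and carries no test.

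Between 4 and 12 weeks, every cyclase change that passed in WT was a fall. Of 54 tests of 9 members in 6 regions, 15 passed as lower and 0 as higher. By region, 4 members were lower in PFC (10.2% of all genes were lower and 8.89% higher), 3 in SSC (13.7% and 13.5%), 4 in HP (10.6% and 7.05%), 0 in STR (9.41% and 9.12%), 2 in TH (12.6% and 10%) and 2 in SN (11.8% and 6.86%). Adcy8 fell in 4 regions, Adcy3 and Adcy6 in 3 each, Adcy5 in 2, Adcy1, Adcy7 and Adcy9 in 1 each, and Adcy2 and Adcy4 in 0. Without the libraries that carry another region's markers 14 tests passed. The shares of all genes that passed in those fits are not given here. Adcy2 in HP, the rise nearest to the threshold (0.24 ± 0.09, adjusted p = 0.056), passed under RLE scaling (adjusted p = 0.043) and in DESeq2 (0.030), but was at 0.11 without those libraries (adjusted p = 0.30). Age cannot be told apart from the cohort or the library preparation of that age.

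In PFC, Adcy6 held 65.1, 70.3, 72.1, 75.0 and 81.0 CPM in WT at 4 weeks and 57.3, 57.5, 58.4, 58.9 and 60.04 CPM at 12 weeks. All 5 older libraries were below all 5 younger ones, a change of -0.31 ± 0.06 (log2 and SE, adjusted p = 4.8e-04). How many of all genes had ages that did not overlap was not counted in any region. Adcy3 (-0.36 ± 0.08), Adcy8 (-0.35 ± 0.09) and Adcy5 (-0.22 ± 0.08) also fell there. In SSC, Adcy8 held 39.3, 46.3, 48.9, 49.0 and 52.1 CPM at 4 weeks and 29.8, 30.1, 34, 37.4 and 37.5 at 12 weeks. Again the groups did not overlap, and the change was -0.47 ± 0.08 (adjusted p = 1.2e-04). Adcy1 (-0.33 ± 0.12) and Adcy6 (-0.21 ± 0.07) fell there as well.

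In HP, Adcy7 had the largest fall of any member, from a lowest, median and highest of 4.22, 5.44 and 11.6 CPM in 6 libraries to 1.95, 2.78, 3.10, 3.57 and 4.03 CPM in 5 (-1.04 ± 0.27, adjusted p = 0.0071). The groups did not overlap, a trait not counted over all genes, and the younger one was widely spread. Adcy8 (-0.73 ± 0.19), Adcy6 (-0.34 ± 0.08) and Adcy3 (-0.29 ± 0.06) fell as well. The 6 thalamic markers summed to 113 to 1103 CPM in the WT hippocampal libraries at 4 weeks and to 89.7 to 212 at 12 weeks; the 2 highest, WT 23 with 1103 CPM and WT 914 with 791, had the 2 highest Adcy8 levels, 41.4 and 35.4 CPM. Without the libraries that carry such markers Adcy7 stayed lower (-0.69, adjusted p = 0.039), whereas Adcy8 did not pass (-0.47, adjusted p = 0.13).

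In TH, Adcy3 (-0.26 ± 0.07) and Adcy9 (-0.46 ± 0.13) were lower at 12 weeks, and in SN Adcy5 (-0.25 ± 0.07) and Adcy8 (-0.44 ± 0.15). Adcy9 in TH rested partly on WT 913, with 68.7 CPM against 34.8 to 40.1 in the other 5 young libraries and 27.6 to 33.9 in the older ones. The thalamic markers summed to 2123 to 5146 CPM over all WT libraries of TH at 4 weeks, with WT 913 lowest, and to 3444 to 3842 CPM at 12 weeks. Without the libraries whose thalamic marker score was under 8 (mean log2(CPM + 1) of the list) Adcy3 (adjusted p = 0.19) and Adcy9 (0.12) did not pass, and without those poor in dopamine neuron markers Adcy8 in SN did not (0.16), while Adcy6 in SN did (-0.27, adjusted p = 0.011, against -0.22 and 0.087 with all libraries). Adcy5 moved the same way in 2 further regions without passing. In SSC it held 129 to 169 CPM at 4 weeks and 91.5 to 104 at 12 weeks (-0.59, adjusted p = 0.070), and passed with the HET libraries that carry striatal markers left out of the fit (adjusted p = 2.1e-06). In striatum, given above by library, it changed by -0.49 (adjusted p = 0.052), and by -0.48 without the libraries carrying cortical markers (adjusted p = 0.0073).

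**Figure D3:**
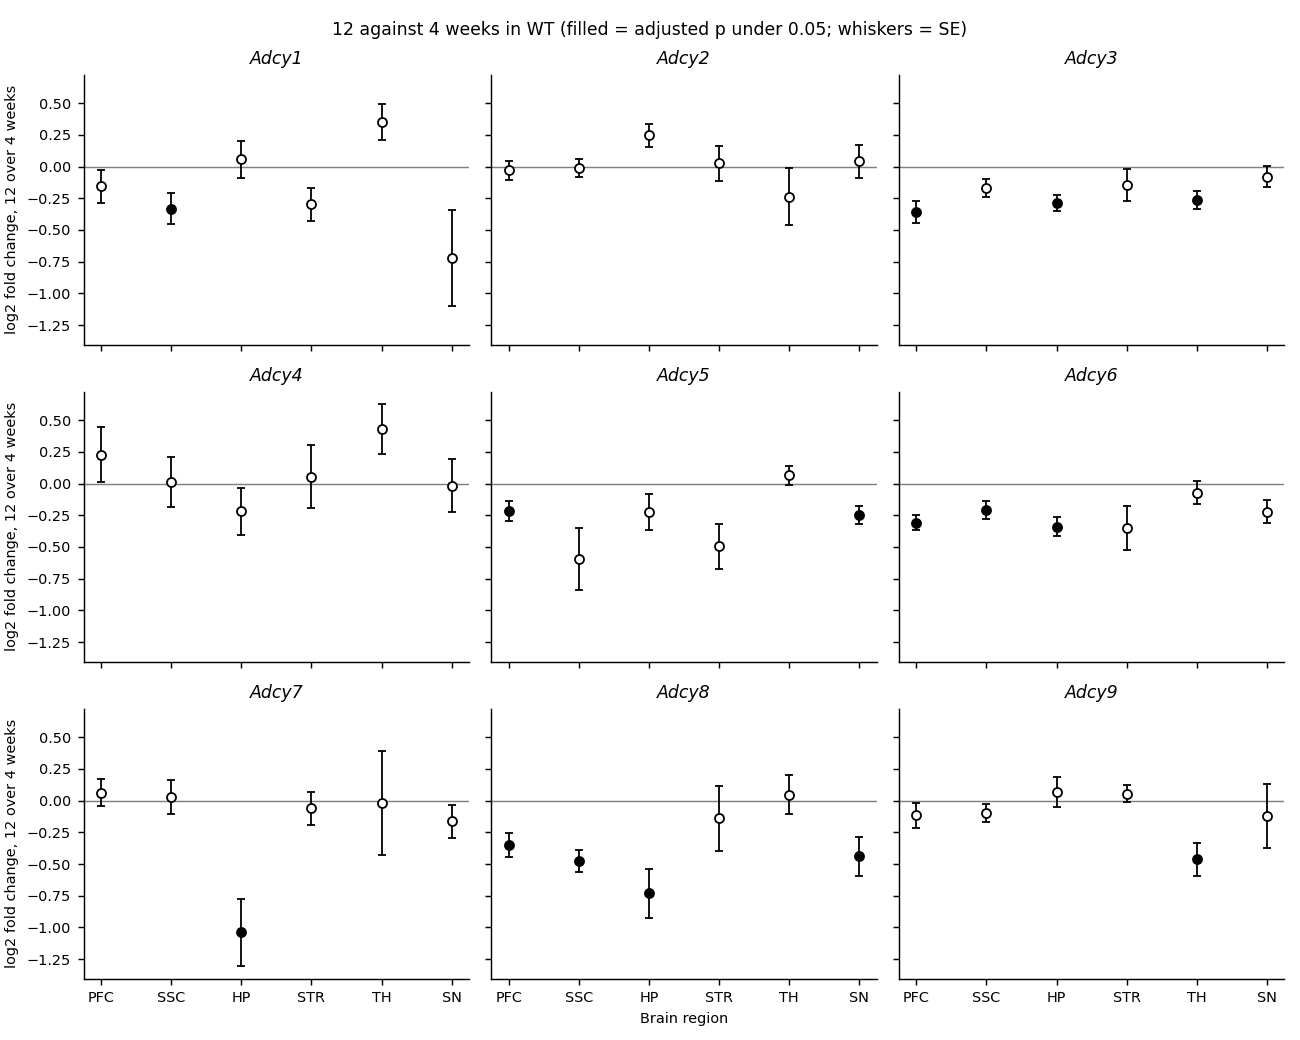
Difference between 12 and 4 weeks in WT (log2, point and SE) for each adenylyl cyclase in each region, with the tests that passed marked. All 15 marked points lie below 0, the lowest being Adcy7 in HP at -1.04.

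Between KO and WT a single cyclase passed the test, Adcy1, in striatum, where it was higher in KO. Of 108 tests of KO against WT, 2 passed, Adcy1 in striatum at 4 weeks (3.35% of all genes passed there) and at 12 weeks (4.42%). Outside striatum 0 of 90 passed, where 0.0180% of all gene tests did. That share is 29 gene tests, and Akap11 itself is among them in each of the 10 comparisons. Of the 90, 15 had an unadjusted p under 0.05. Over all genes the number with such a p ran from 479 of 16438 (HP, 12 weeks) to 2415 of 15970 (PFC, 4 weeks) per comparison.

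At 4 weeks Adcy1 in striatum held 233, 277, 304, 328 and 440.3 CPM in WT, 262, 263, 286, 286 and 347 in HET and 446, 526, 573, 576 and 633 in KO. Every KO library was above every WT library, as for 3.60% of all genes, and the HET libraries lay within the WT range. KO exceeded WT by 0.80 ± 0.14 (log2, SE; adjusted p = 0.0054). At 12 weeks it held 197, 222, 235, 289 and 317 CPM in WT, 199.8, 214, 216, 225 and 260.0 in HET and 375, 381, 384, 405 and 422 in KO. Again no KO library overlapped WT, as for 5.36% of all genes, and the difference was 0.63 ± 0.10 (adjusted p = 0.0016). Leaving out each WT or KO library in turn gave 0.72 to 0.95 at 4 weeks (adjusted p = 5.9e-04 to 0.022) and 0.56 to 0.72 at 12 weeks (adjusted p = 3.5e-04 to 0.0070). Even so, striatal Adcy1 in KO stayed below its WT level in cortex, hippocampus and thalamus.

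**Figure D4:**
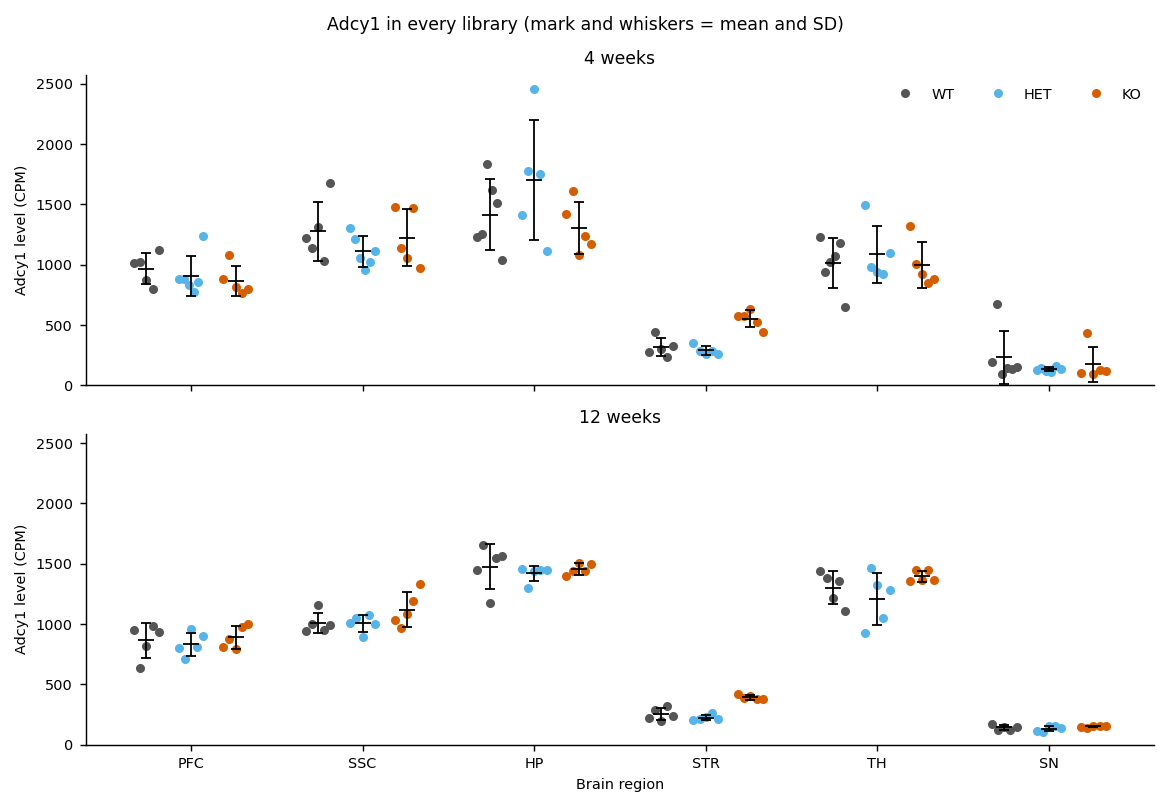
CPM of Adcy1 in every library by region, genotype and age. In striatum the KO points (446 to 633 CPM at 4 weeks, 375 to 422 at 12 weeks) lie above all WT points of the same age.

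Some striatal libraries of 4 weeks carried markers of cortex. The 6 markers of cortical and hippocampal excitatory neurons (Slc17a7, Neurod2, Neurod6, Emx1 and Tbr1 among them) summed to 3.80, 5.00, 704, 1128 and 1486 CPM in KO, to 3.48, 5.18, 11.1, 20.7 and 803 in WT and to 3.83 to 114 in HET. All 6 were tested, 0 passed, and their median KO difference was 2.25 (log2). The rise of Adcy1 was as large without the 4 libraries that carry them (0.82 ± 0.15, adjusted p = 0.011). The 2 remaining KO libraries, KO 12 with Emx1 at 0 and KO 932 with Neurod6 at 0, held 573 and 446 CPM of Adcy1. At 12 weeks the markers summed to 1.67 to 7.76 CPM in all 15 striatal libraries.

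The other cyclases did not pass in striatum, and at 4 weeks several were shifted in the KO libraries that carry those markers. Adcy2 held 49.4, 50, 51.9, 52.4 and 79.4 CPM in WT and 56.1, 57.6, 81.3, 95.4 and 115 in KO (0.52 ± 0.18, adjusted p = 0.13). Adcy8 held 3.15, 3.60, 4.41, 4.46 and 7.14 CPM in WT and 4.01, 4.25, 7.03, 13.9 and 14.5 in KO (0.94 ± 0.33, adjusted p = 0.14). Adcy5 held 2395 to 4088 CPM in WT and 1268, 1504, 1885, 2505 and 3702 in KO (-0.51 ± 0.24, adjusted p = 0.28). In each case the groups overlapped, and the KO libraries farthest from WT were KO 51, KO 161 and KO 163, which carry the markers. WT 92, which also carries them, was the highest WT library for Adcy2 and Adcy8. For Adcy5 it went the other way from these KO libraries, with 3312 CPM, within the range of the other WT libraries. Without the 4 such libraries the differences were 0.15 for Adcy2, 0.06 for Adcy8 and 0.02 for Adcy5. Leaving out KO 12 alone brought all 3 past the threshold (Adcy2 0.63, Adcy5 -0.79, Adcy8 1.12), and leaving out WT 92 alone did so for Adcy2 (0.67, adjusted p = 0.041).

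At 12 weeks, where no striatal library carried cortical markers, Adcy5 held 1768, 2137, 2255, 2303 and 2333 CPM in WT and 1622, 1836, 1895, 1987 and 2047 in KO. Of the WT libraries only WT 3 lay within the KO range, and the difference was -0.21 ± 0.07 (adjusted p = 0.13). It passed without WT 3 (-0.27, adjusted p = 0.014) and in DESeq2 (adjusted p = 0.0496). The remaining 7 members differed by -0.16 to 0.21 at 12 weeks, with Adcy9 lowest and Adcy8 highest, and none of these 7 passed. Over all 9 members the median difference was 0.11 at 4 weeks and 0.03 at 12 weeks, beside -0.0015 and 0.0053 over all genes.

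**Figure D5:**
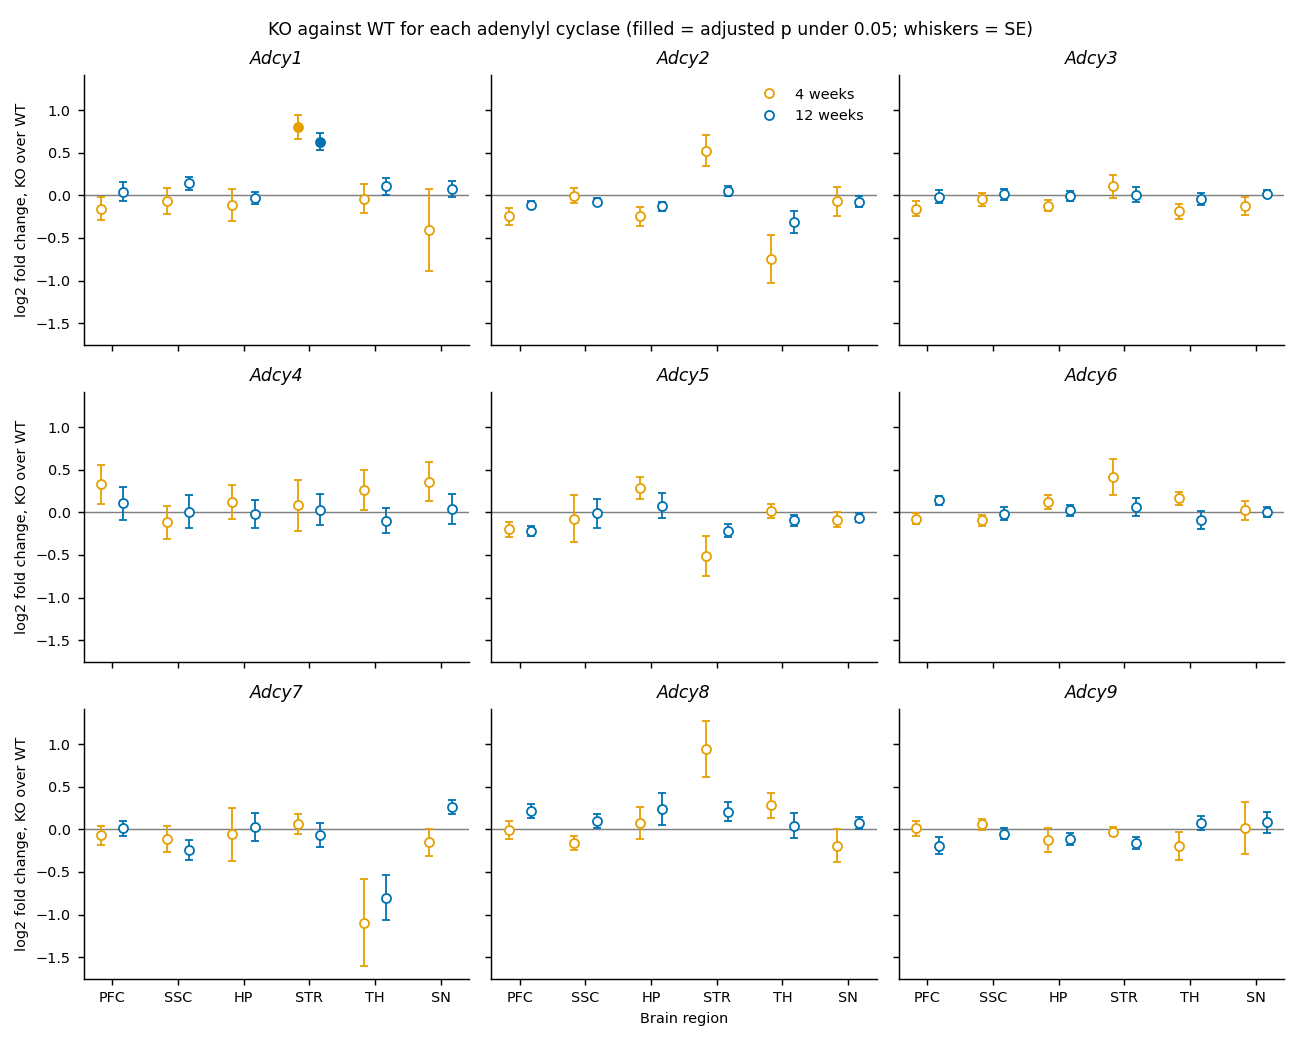
Difference between KO and WT (log2, point and SE) for each adenylyl cyclase in each region at 4 and 12 weeks, with the tests that passed marked. The 2 marked points are Adcy1 in striatum, at 0.80 and 0.63.

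Outside striatum the member with the smallest unadjusted p was Adcy5 in PFC at 12 weeks, with means of 139 CPM in KO and 161 in WT (-0.22 ± 0.06, adjusted p = 0.79). The largest difference was that of Adcy7 in TH at 4 weeks, with means of 3.32 and 7.05 CPM (-1.10 ± 0.51, adjusted p = 0.36). Adcy7 in TH at 12 weeks (-0.80 ± 0.26, adjusted p = 0.51) and Adcy2 in TH at 4 weeks (-0.75 ± 0.28, adjusted p = 0.29) were next in size. None of these 4 differences passed. In TH at 4 weeks the WT libraries 913 and 914, both with a low thalamic marker score, held 8.34 and 20.4 CPM of Adcy7 against 2.29 to 4.95 in the other 4 and 2.11 to 4.67 in KO. They held 102 and 72.4 CPM of Adcy2 against 30.7 to 50.5 in the other 4 and 25.9 to 46.5 in KO. Without the low-scoring libraries of TH, which are WT 23, WT 913 and WT 914 at 4 weeks, the difference was -0.07 ± 0.38 for Adcy7 (adjusted p = 0.98) and -0.27 ± 0.20 for Adcy2 (adjusted p = 0.82). At 12 weeks Adcy7 was at -0.83 ± 0.27 without them (adjusted p = 0.48).

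No member passed the test between HET and WT. Of 108 tests 0 passed in edgeR, where 0.00521% of all gene tests did, and DESeq2 also gave 0. All 10 gene tests behind that share were of Akap11 itself. In edgeR 11 of the 108 had an unadjusted p under 0.05. Over all genes the number with such a p ran from 263 of 15893 (SSC, 12 weeks) to 2551 of 15654 (TH, 4 weeks) per comparison. In striatum, HET Adcy1 differed from WT by -0.12 ± 0.14 at 4 weeks and -0.18 ± 0.10 at 12 weeks. Set against HET in place of WT, with the same KO libraries, Adcy1 was higher in KO striatum by 0.93 ± 0.14 (adjusted p = 0.0019; 3.88% of all genes passed) and 0.81 ± 0.10 (adjusted p = 2.0e-04; 4.79% passed), and these were the only 2 of 108 member tests that passed.

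Whether the KO effect differed between ages was tested directly, and 0 of 54 member tests passed, as did 0% of all gene tests. DESeq2 also gave 0 members. In edgeR 5 of the 54 had an unadjusted p under 0.05. Over all genes the number with such a p ran from 468 of 16358 in SSC to 1261 of 16809 in SN. A further contrast set the striatal KO effect against the mean of the effects elsewhere. At 12 weeks Adcy1 did (0.56 ± 0.12, adjusted p = 8.7e-04), 1 of 9 members where 3.11% of all genes passed. At 4 weeks Adcy2 (0.79 ± 0.20, adjusted p = 0.011) and Adcy8 (0.94 ± 0.23, adjusted p = 0.010) did, 2 of 9 where 3.52% of all genes passed, and Adcy1 missed the threshold (0.96 ± 0.30, adjusted p = 0.055). Without the libraries carrying markers of another region, the 4-week calls were other ones. Adcy1 passed (1.05, adjusted p = 0.0040), as did Adcy3 (0.55, adjusted p = 0.014). Adcy2 (0.31, adjusted p = 0.39) and Adcy8 (0.12, adjusted p = 0.82) did not. The striatal KO group was then only KO 12 and KO 932, with Adcy3 at 187 and 188 CPM. With all libraries Adcy3 was at 0.24 (adjusted p = 0.29).

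The genes around the cyclases were followed in 12 lists with 108 genes, of which 103 were tested in striatum. In KO, 4 were higher and 3 lower at 4 weeks, and 2 higher and 7 lower at 12 weeks, where 3.35% and 4.42% of all genes passed in either direction. The median difference over the tested genes was -0.0079 and -0.0065, beside -0.0015 and 0.0053 over all genes. Upstream, 2 of 13 tested beta-gamma subunits rose at both ages, where 3.35% and 4.42% of all genes changed: Gng4 by 1.39 ± 0.14 and 0.90 ± 0.19, and Gnb4 by 0.76 ± 0.14 and 1.28 ± 0.16. Gnb4 held 52.5 to 84.0 CPM in WT and 98.8 to 132 in KO at 4 weeks. Without the 4 libraries carrying cortical markers, 5 of 104 tested genes were higher and 4 lower at 4 weeks. The share of all genes that passed in that fit is not given here, and 3.35% belongs to the fit with all libraries. Of the 9 listed genes that passed, 5 had also passed with all libraries, among them Gng4 (1.29 ± 0.14), Chrm2, Htr4 (-2.71 ± 0.36) and Htr6. Gnb4 (0.62 ± 0.16, adjusted p = 0.064) and Pkig (-0.29 ± 0.11, adjusted p = 0.20) then missed the threshold, and Adora1, Gng3 and Pde3a were among those that newly passed. The Gs and Gi family alpha subunits had 0 of 7 members past the threshold at either age.

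Of 17 tested receptors that raise cyclic AMP, 2 fell at 4 weeks (3.35% of all genes changed) and 1 at 12 weeks (4.42%). Htr4, a serotonin receptor coupled to Gs, held 3.20 to 5.57 CPM in WT and 0.43 to 0.89 in KO at 4 weeks (-2.90 ± 0.26) and 4.47 to 6.52 against 1.12 to 2.90 at 12 weeks (-1.40 ± 0.24). Htr6, another such receptor, was lower at 4 weeks (-0.61 ± 0.13). Of 21 tested receptors that lower cyclic AMP, 1 passed at 4 weeks and 2 at 12 weeks, beside the same 3.35% and 4.42%: the muscarinic receptor Chrm2 rose at 4 weeks (0.58 ± 0.11), and the adenosine receptor Adora1 (-0.94 ± 0.08) and the glutamate receptor Grm4 (-0.33 ± 0.07) fell at 12 weeks. Adora1 held 192 to 246 CPM in WT and 99.0 to 135 in KO.

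Downstream, the PKA inhibitor Pkig fell at 4 weeks (-0.29 ± 0.07). At 12 weeks the phosphodiesterases Pde10a (-0.43 ± 0.11) and Pde2a (-0.29 ± 0.06), which degrade cyclic nucleotides, fell, 2 of 16 tested where 4.42% of all genes changed. Camk2b, a subunit of a calcium- and calmodulin-dependent kinase, also fell at 12 weeks (-0.36 ± 0.05). All 4 PKA regulatory subunits missed the threshold at both ages. Outside striatum 1 of 1044 tests of the listed genes passed, where 0.0180% of all gene tests did, those of Akap11 included. The listed gene was Prkar1a in SSC at 12 weeks (-0.25, adjusted p = 0.040).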

How the data were processed

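Bulk RNA was measured in 186 libraries. Libraries were made with Illumina's TruSeq Stranded mRNA kit from 200 ng of RNA, per the labels' protocols. The authors deposited a table of expected counts per gene, meaning estimated counts that need not be whole, and per the submitters' processing notes Salmon and mm10 were used; the sources used here give no version, annotation or strand setting. Libraries were grouped by their labels, and 0 columns were without a sample.

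Counts were rounded and fitted over all genes with edgeR 4.0.16 in R 4.3.3 (TMM scaling, filterByExpr by group, quasi-likelihood test, Benjamini-Hochberg over all genes tested, threshold 0.05): per region and age for genotype, per region for age, and per age for regions in WT and for the striatal KO effect. SE is the log2 difference divided by the square root of F. The tests were checked on simulated counts with 200 changed genes. Alternatives were RLE scaling, no low-count filter, DESeq2 1.42.0, fewer groups in the fit, a replicate block (edgeR, or limma 3.58.1 with voom across regions), each library left out, and, chosen after seeing the data, leaving out libraries that carry another region's markers and, at 4 weeks, a covariate for 16 libraries with under 10% whole numbers among their values. Marker score is the mean log2(CPM + 1) of a list; limits were above 4 (cortical, STR), 6 (striatal, SSC; thalamic, HP), below 8 (thalamic, TH) and 5 (dopamine neuron, SN). Lengths and positions are from GENCODE M21. All 9 members were named, as were for each the 3 genes of highest r and, of the pathway lists, those called in KO striatum, at most 4 a list. Some listed genes that enter the counts are not reported here by name. Members and lists were chosen with earlier results of these data known. The depth of 20.8 to 73.3 M counts gives at least 44 counts for the weakest member, Adcy4; nothing was measured of protein or enzyme activity.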

Additional observations from a re-analysis of the deposited data

Results flagged for a closer look

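Over 144 combinations of a member and a group of 5 or 6 libraries, those of WT in all regions and of HET and KO in striatum, 15 values from 13 libraries stood apart from the rest of their group by Dixon's 95% critical value for the gap over the range. Chance flags about 1 in 20 such combinations. In WT at 4 weeks, Adcy1 was high in SN WT 42 (675 CPM), Adcy2 in PFC WT 914 (307 CPM) and in STR WT 92 (79.4 CPM), Adcy7 in TH WT 914 (20.4 CPM) and Adcy9 in TH WT 913 (68.7 CPM), and Adcy9 was low in SN WT 92 (6.35 CPM). In WT at 12 weeks, Adcy1 was high in SSC WT 3 (1155 CPM), Adcy4 in SSC WT 1 (4.66 CPM), Adcy7 in STR WT 1 (5.44 CPM) and SN WT 1 (29.3 CPM) and Adcy8 in STR WT 4 (4.61 CPM), and Adcy6 was low in SN WT 1 (38.2 CPM). In HET striatum, library HET 11 at 4 weeks was high in Adcy1 (347 CPM) and Adcy9 (77.1 CPM), and HET 3 at 12 weeks was low in Adcy8 (3.24 CPM). Of these, SN WT 42, SN WT 92, STR WT 92, TH WT 913 and TH WT 914 are among the libraries that have a high marker score for another region or a low one for their own.

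The difference between KO and WT was more positive in striatum than elsewhere on average for Adcy2 (by 0.79 on the log2 scale) and Adcy8 (0.94) at 4 weeks and for Adcy1 (0.56) at 12 weeks, by a direct test of that contrast in edgeR. Without the libraries carrying another region's markers Adcy2 (0.31, adjusted p = 0.39) and Adcy8 (0.12, adjusted p = 0.82) did not pass.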

How the results depend on the processing

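The count of members past the threshold for KO against WT was 2 under every other setting except DESeq2, which gave 3, and 2 to 5 as each library was left out, with 5 when striatal KO 12 of 4 weeks was. For HET against WT it was 0 throughout. The count of members whose KO effect in striatum differed from the other regions, 3, was 1 to 5 as each library was left out: 1 without striatal KO 51 or KO 161 and 5 without striatal KO 12, KO 932 or WT 92 or SN WT 92, all of 4 weeks. Members that differed with age numbered 10 (WT libraries alone) to 17 (DESeq2). Regional differences numbered 80 to 86 and neighbouring pairs 37 to 48. Of 2935 single called values with a library left out, 2886 kept their side of the threshold and 0 reversed; of 582 under other settings 564 did and 0 reversed.

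Over all genes, KO calls in striatum at 4 weeks numbered 516, but 978 in DESeq2, 174 with KO and WT alone and 263 to 1141 as each library was left out; at 12 weeks 691 became 428 to 891. Genes whose striatal KO effect differed at 4 weeks numbered 619, but 308 without libraries carrying another region's markers and 364 with the block in limma-voom. Age calls in TH fell from 3642 to 2288 without those libraries and 2227 in WT libraries alone, and in SN from 3132 to 679 in WT libraries alone.

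At 12 weeks genotypes share sample numbers. Same-numbered libraries correlated by over 0.1 in 19 of 30 KO and WT pairs (range -0.25 to 0.60). The same held for 19 of 30 HET and WT pairs (range -0.24 to 0.68). Libraries with unlike numbers were not compared, so these values cannot decide whether the numbers are a pairing. The main fits used no pairing. With the replicate block the member count was 2 for KO and 0 for HET, and striatal calls over all genes rose from 691 to 992. Across regions the block gave 81 regional differences, 41 neighbouring pairs and 2 members for the striatal KO effect.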
